A study of Sardinops sagax and Scomber japonicus with 20 samples.

Results

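The genes followed here carry, bind or convert steroids, and there were 10 of them, read in the liver of 2 fish species. These were SHBG, the membrane progesterone receptor components PGRMC1 and PGRMC2, the hydroxysteroid dehydrogenases HSD17B2, HSD17B4, HSD17B7, HSD17B8, HSD17B12 and HSD3B7, and the aromatase CYP19A1. A row was taken when its human gene symbol equalled one of these 10 names. All 10 were found in at least 1 species and 6 in both, in 17 rows. The sardine table held 7 of them in 7 of its 6716 rows, and 9 of them stood in 10 of the 9191 mackerel rows, with HSD17B12 in 2 rows. HSD17B4, HSD17B7 and HSD17B12 had no row in the sardine table, and CYP19A1 had none in the mackerel table.

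Liver RNA was sequenced from 20 adult male fish of Scomber japonicus, the chub mackerel, and Sardinops sagax, the Pacific sardine. Of each species 5 males had spent 5 h in seawater with 12.5 pM ethinylestradiol (EE2), the synthetic estrogen of contraceptive pills, and 5 males were unexposed controls. The study asked how a short exposure to an environmental estrogen changes the liver transcriptome of wild fish, which came from a live bait supply and were kept in tanks. The data were 1 table per species, in which the authors compared the groups with DESeq2, and neither table holds values per fish.

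The liver makes most of the proteins that carry steroids in blood, and it oxidises, reduces and conjugates steroids before they leave the body. SHBG is the plasma globulin that binds androgens and estrogens, and in zebrafish it is also known to bind EE2. The hydroxysteroid dehydrogenases are named for their steroid substrates, but several of them are better known for other work, such as peroxisomal oxidation, cholesterol synthesis, fatty acid elongation or bile acid synthesis.

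Which group the positive fold changes stand for is recorded in neither table. Values are therefore given as higher on the positive or on the negative side, and no difference is assigned to exposure. The word called is used for rows whose DESeq2 adjusted p was under 0.05 in the authors' deposited tables. Behind the mean normalized counts of both tables lies a regular grid, from which whole reads could be recovered. Every mackerel row gave 1 number of reads for each side. The 5123 sardine rows with a mean of up to 5 gave a number for each of 5 positive-side libraries and 1 number for the negative side. In sardine rows of higher mean only the negative-side number was derived, using the mean together with the fold change. This estimate matched the solved number in 100% of the solved rows, which held 7284 negative-side reads. Where several solutions fitted a solved row, that nearest to the estimate was kept. In such rows, whose number was not counted, the match was in part built in. The match could not be checked in rows of higher mean. Recovered reads summed to 376343 and 332486 on the positive and negative side in mackerel, at a median of 4 per row, and to about 125299 on the sardine negative side. Total reads per library are unknown.

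Rows with the same reads had the same fold change and the same standard error (SE) in the authors' deposited tables. In mackerel this held for 358 of 358 read pairs that at least 2 rows shared. In sardine it held for 11 of 11 negative-side numbers shared by rows without positive-side reads. The SE printed below therefore shows no spread between fish in mackerel, nor between the fish of the negative side in sardine. Intervals on reads cover counting error only and hold no spread between fish. They may be too narrow even for counting error, since amplified copies cannot be told from separate molecules in libraries without molecular identifiers.

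The sides of the sardine table also differed in the levels of tissue markers. The summed level of 19 of 22 muscle markers was 57.5 normalized counts on the positive side but 19200 on the negative, with DES, MYL7 and TNNI1 among those at 0 on the positive side. Of 45 muscle rows 37 were called negative and 2 positive. The 16 of 20 hepatocyte markers found summed to 47700 and 9930, and 24 of their 27 rows were called positive and 1 negative. In mackerel the same lists summed to 54900 and 75200 for hepatocytes and to 52.8 and 86.7 for muscle. The mackerel hepatocyte rows were divided, with 6 called positive and 6 negative of 25 with an adjusted p. Of 19 such muscle rows 2 were called positive and 3 negative. The part of these markers in the results below was not tested. In bulk liver RNA, fewer cells of a type and less RNA per cell cannot be told apart.

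Of the 7 sardine rows, 4 were called positive and 1 negative in the authors' deposited table, where 30.5% and 16.1% of all 6600 rows with an adjusted p were called on the respective sides. Of the 10 mackerel rows 9 had an adjusted p. Of these 9, 2 were called positive and 3 negative, where 14.1% and 10.8% of all 6319 such rows were. The members' median log2 fold change was 2.45 in sardine, against -0.19 over all rows, and -0.39 in mackerel, against 0.04. With rows at 0 reads on a side set to the bound that a floor of 3 reads allows, the members' medians were 0 and -0.09, against -0.19 and 0 over all rows. Reads were present on both sides in 3 of the 7 sardine rows, of which PGRMC1 was called positive and PGRMC2 negative. Over the 3171 sardine rows with reads on both sides and an adjusted p, 13.2% were called positive and 24.4% negative in the authors' deposited table.

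**Figure D1:**
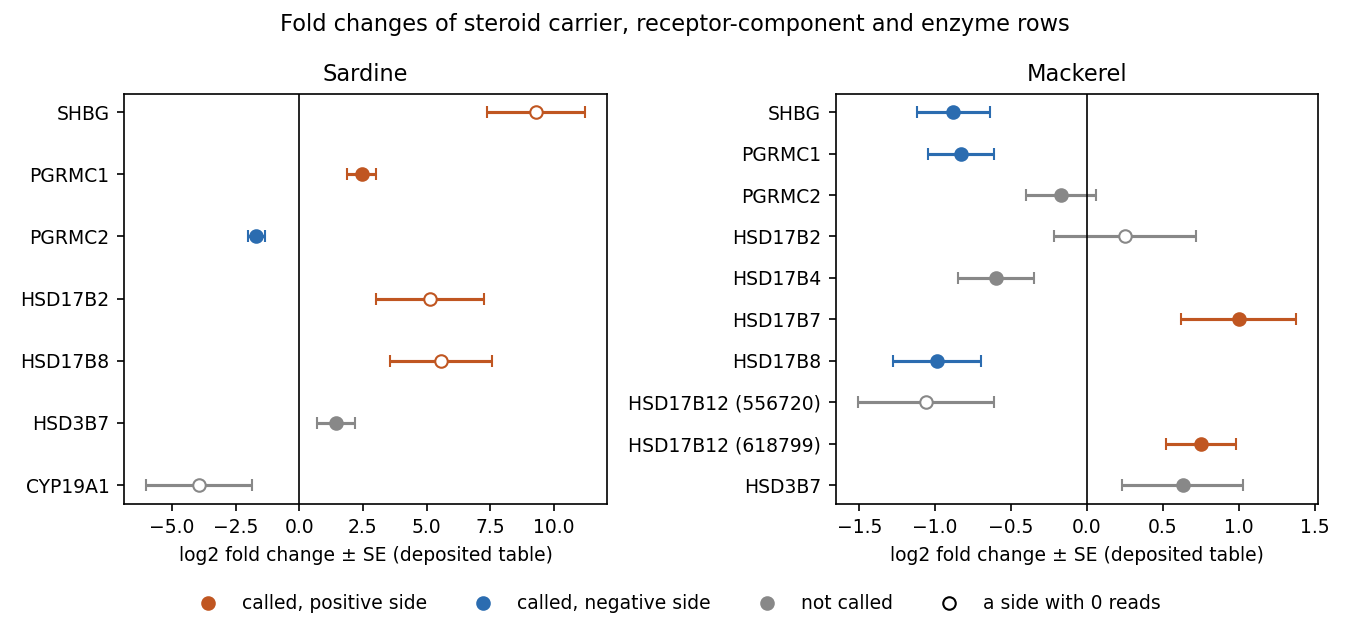
Log2 fold change with its SE for each row in the authors' deposited tables, sardine on the left and mackerel on the right, on axes of different range. Colour marks the call and open points mark rows with 0 recovered reads on a side; SHBG and PGRMC1 lie on the positive side in sardine and on the negative side in mackerel.

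SHBG was called in both species, on opposite sides. The sardine row (record NM_001007151.2) had a mean normalized count of 20.1 and 0 reads on the negative side. At the level of the positive side, 45.3 reads would have been recovered there. With a floor of 3 reads over the negative side, the positive side of SHBG was at least 15.1-fold higher. The authors' deposited table gave a fitted log2 fold change of 9.30 ± 1.92 (SE; DESeq2 adjusted p 3.29e-05), which with 0 reads on a side is no bound. Relative to the summed hepatocyte markers, which were 4.81-fold higher on the positive side, SHBG was at least 3.14-fold higher at the same floor.

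In mackerel SHBG (fugu model 570945) was the best covered of the 10 rows, with 102 positive-side and 157 negative-side reads. After scaling, its level was 1.90-fold higher on the negative side (95% interval 1.47 to 2.47). The authors' deposited table gave -0.88 ± 0.24 (SE; DESeq2 adjusted p 0.00262). An exact two-sided binomial test of the recovered reads, adjusted over all 9191 rows by the Benjamini-Hochberg method, also called it negative (adjusted p 2.08e-05), where 2.07% of all rows were called positive and 2.0% negative. It was the only one of the 10 mackerel rows that this test called. The test compares 2 sums of reads, not 2 sets of fish. The summed hepatocyte markers were 1.37-fold higher on the same side, and relative to them SHBG was 1.39-fold higher there.

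PGRMC1 and PGRMC2 are heme-binding membrane proteins of the cytochrome b5 family, and PGRMC1 is known to bind cytochromes P450. In sardine they were called on opposite sides. PGRMC1 (NM_001007392.1) had an estimated 8 reads on the negative side, where 44.1 would match the positive side, and in the authors' deposited table its log2 fold change was 2.45 ± 0.57 (SE; DESeq2 adjusted p 0.000282). PGRMC2 (NM_213104.1) had an estimated 121 reads on the negative side, where 38 would match the positive side, and in the authors' deposited table its log2 fold change was -1.68 ± 0.34 (SE; DESeq2 adjusted p 2.12e-05). The exact 95% intervals of these read numbers, 3.45 to 15.8 and 100 to 145, do not reach the numbers that would match. Those numbers were taken as fixed, without an error of their own, so this is no comparison between fish. Relative to the summed hepatocyte markers the positive-to-negative ratio of PGRMC1 moved from 5.51 to 1.15. That of PGRMC2 moved from 0.314 to 0.0654, which is 15.3-fold higher on the negative side. These ratios have no interval and do not allow for reads from other tissues. The median sardine hepatocyte marker row had a log2 fold change of 4.5, or 2.63 with rows at 0 set to the bound, both above the 2.45 of PGRMC1.

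The ratio between the 2 genes within a side does not depend on how the sides are scaled. It can depend on which tissues a side holds. In sardine the muscle markers made up 17.3% of the summed level of all rows on the negative side and 0.0266% on the positive. Their part in the PGRMC shares was not tested. PGRMC1 made up 6.20% of the 129 PGRMC reads of the sardine negative side (exact 95% interval 2.72 to 11.9%), and 53.7% of the scaled PGRMC reads of its positive side. In mackerel PGRMC1 made up 69.8% of 43 reads on the positive side (53.9 to 82.8%) and 78.9% of 57 reads on the negative side (66.1 to 88.6%). The mackerel intervals overlap, and the sardine negative side lies below both. Shares of the species rest on different reference transcripts and were not tested against each other.

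Mackerel PGRMC1 (300048) had 30 positive-side and 45 negative-side reads, and its level was 1.85-fold higher on the negative side (95% interval 1.14 to 3.05). It was called in the authors' deposited table (-0.83 ± 0.22 SE; DESeq2 adjusted p 0.00192), but not by the exact binomial test of its reads (adjusted p 0.187). PGRMC2 (585197) had 13 and 12 reads and was not called in the authors' deposited table (-0.17 ± 0.23 SE; DESeq2 adjusted p 0.664). The interval of its positive-to-negative ratio, 0.369 to 2.10, holds both a lower and a higher level. Relative to the summed hepatocyte markers the mackerel ratio of PGRMC2 moved from 0.876 to 1.20 and that of PGRMC1 from 0.539 to 0.739.

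**Figure D2:**
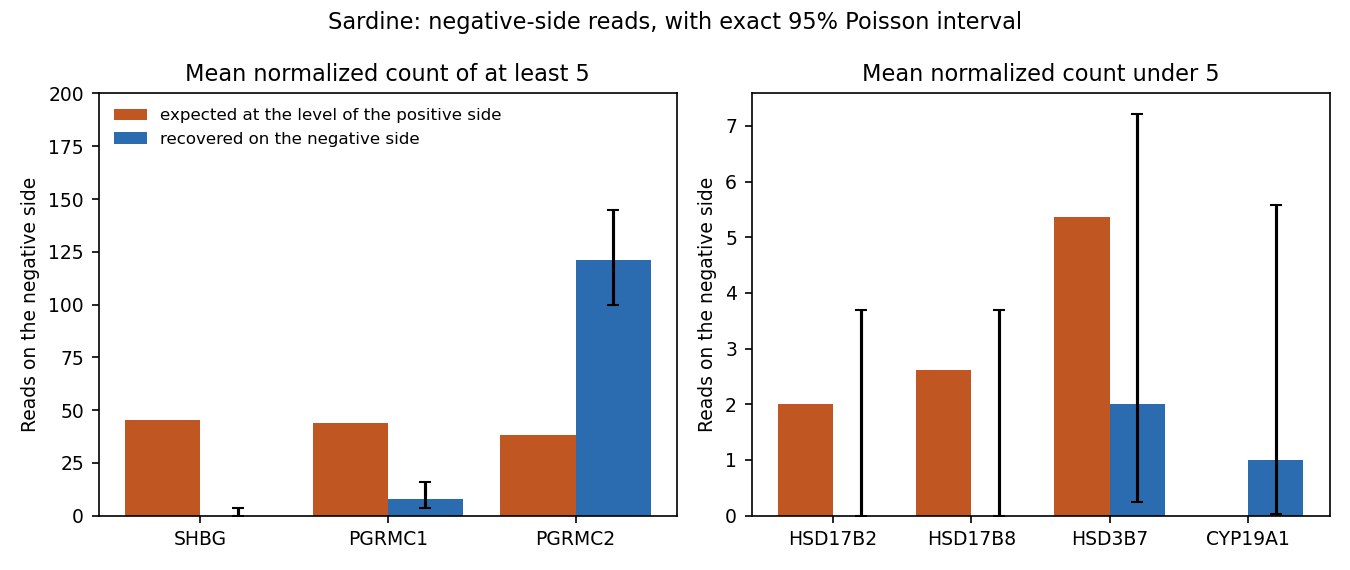
Reads of the 7 sardine rows on the negative side (blue, with exact 95% Poisson interval) beside the number expected if the negative side had the level of the positive side (orange), for the better covered rows on the left and the others on the right. The interval excludes the expected number for SHBG, PGRMC1 and PGRMC2 and includes it for HSD17B2, HSD17B8 and HSD3B7. The expected number is drawn without an error of its own, and spread between fish is not covered. CYP19A1 had 0 positive-side reads, so that none was expected.

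HSD17B2 and HSD17B8 were called positive in sardine on few reads. HSD17B2 is known in mammals for oxidising estradiol to estrone and testosterone to androstenedione. Its sardine row (NM_001080629.1) held 4, 2, 3, 0 and 0 reads in positive-side libraries 1 to 5, numbered by the weight of 1 read in the mean from the lowest to the highest, and 0 on the negative side. Libraries 4 and 5 held none of its reads. The authors' deposited table gave 5.13 ± 2.12 (SE; DESeq2 adjusted p 0.0389).

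HSD17B8 is known in mammals as a subunit of the ketoacyl reductase of mitochondrial fatty acid synthesis. The sardine row (NM_001005292.2) held 6, 3, 1, 1 and 1 reads in the positive-side libraries in the same order, and 0 on the negative side. Every positive-side library held at least 1 read. The authors' deposited table gave 5.57 ± 2.00 (SE; DESeq2 adjusted p 0.0191).

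At these levels the negative side would have held 2.01 reads of HSD17B2 and 2.61 of HSD17B8, and a count of 0 allows up to 3, so a difference was not detectable at this depth. The exact binomial test of the reads gave adjusted p of 0.415 and 0.392 over the 5123 solved rows, of which it called 2.99% positive and 3.14% negative. Of 517 sardine rows with 0 negative-side reads and a mean from 0.8 to 1.3, 94.2% were called positive in the authors' deposited table. A call of such a row was therefore the usual outcome in that table, whatever its gene.

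HSD3B7, a dehydrogenase of bile acid synthesis, was not called in either species. Its sardine row (NM_199809.1) held 6, 8, 7, 1 and 1 positive-side reads and 2 on the negative side. Scaled by the weight of a read in each library these were 4.92, 7.01, 9.06, 1.3 and 1.42 normalized reads, against 1.77 on the negative side. The negative-side value lay inside the range of the 5 libraries, above 2 of them and below 3. The authors' deposited table gave 1.44 ± 0.74 (SE; DESeq2 adjusted p 0.0877), and relative to the summed hepatocyte markers HSD3B7 was 1.8-fold higher on the negative side. In mackerel HSD3B7 (600586) had 4 reads against 1 and 0.63 ± 0.40 in the authors' deposited table (SE; DESeq2 adjusted p 0.242), values that it shared with all of the 91 rows holding those reads.

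**Figure D3:**
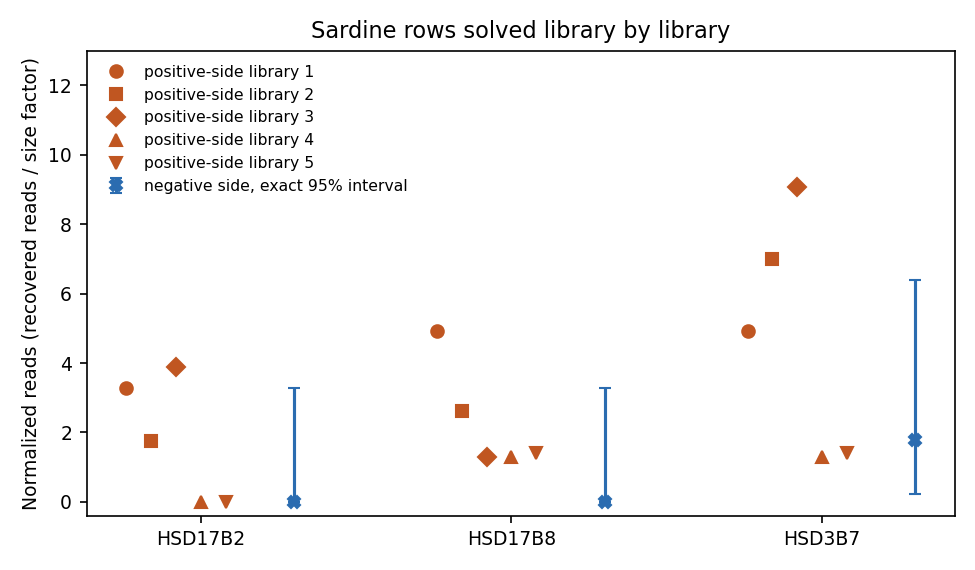
Normalized reads (recovered reads scaled by the weight of a read in the library) of HSD17B2, HSD17B8 and HSD3B7 in each of the 5 positive-side sardine libraries (orange) and on the negative side (blue cross, with exact 95% Poisson interval). Libraries 4 and 5 are at 0 for HSD17B2 and near 1.4 for the other genes, and the interval of the negative side overlaps the positive-side values in each gene.

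In mackerel HSD17B8 (751222) had 5 positive-side and 10 negative-side reads. It was called negative in the authors' deposited table (-0.99 ± 0.29 SE; DESeq2 adjusted p 0.00452), on the other side than in sardine. The level was 2.47-fold higher on the negative side, with a 95% interval of 0.770 to 9.22 that includes equal levels, and the exact binomial test did not call it (adjusted p 0.858). HSD17B2 (580460) had 1 positive-side and 0 negative-side reads, as had 1303 mackerel rows in all, and no adjusted p in the authors' deposited table.

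Among the enzymes found only in the mackerel table, HSD17B12 and HSD17B7 were called positive. HSD17B12 reduces the ketoacyl intermediate of fatty acid elongation. Its better covered row (618799) had 21 positive-side and 9 negative-side reads and in the authors' deposited table its log2 fold change was 0.75 ± 0.23 (SE; DESeq2 adjusted p 0.00822). The ratio of its levels was 1.89, with an interval of 0.829 to 4.68 that includes equal levels. The other HSD17B12 row (556720) had 0 positive-side and 2 negative-side reads and was not called in the authors' deposited table (DESeq2 adjusted p 0.0627). No fold is given for it, as both sides were under the floor of 3 reads.

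HSD17B7 reduces the ketosteroid intermediate of cholesterol synthesis and, in mammals, also converts estrone to estradiol. The mackerel row (583502) had 6 positive-side and 1 negative-side reads, a ratio of 4.85 with a 95% interval of 0.589 to 223. It was called in the authors' deposited table (1.0 ± 0.38 SE; DESeq2 adjusted p 0.0375), but not by the exact binomial test (adjusted p 0.883). The deposited value stands for 2.0-fold, nearer to equal levels than the ratio of the reads. The reason for this gap was not tested. HSD17B4, the bifunctional enzyme of peroxisomal beta-oxidation, had 9 and 12 reads (597156) and was not called in the authors' deposited table (-0.60 ± 0.25 SE; DESeq2 adjusted p 0.0627), with a ratio of 0.607 (0.226 to 1.57).

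CYP19A1, which converts androgens to estrogens, was found only in sardine (NM_131642.1). It rested on 1 read on the negative side and 0 in the 5 positive-side libraries, as did 519 rows of that table in all. The authors' deposited table gave all 519 the log2 fold change -3.93 ± 2.08 (SE; DESeq2 adjusted p 0.0877). No fold is given, since neither side exceeded the floor, and a difference in CYP19A1 was not detectable at this depth.

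**Figure D4:**
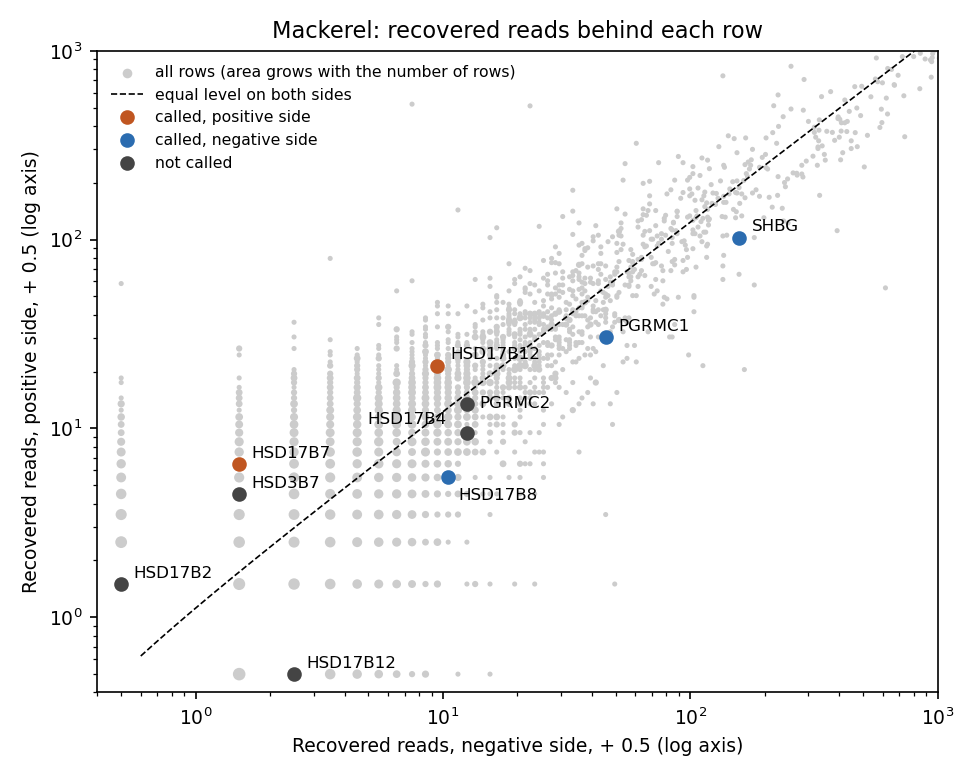
Recovered reads of each mackerel row on the negative side (horizontal) and the positive side (vertical), with 0.5 added, on log axes; grey points are all rows and the dashed line marks equal levels. SHBG (102 and 157 reads) and PGRMC1 (30 and 45) lie below the line among well covered rows, whereas HSD17B7 (6 and 1) lies in the sparse corner.

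The genes that work beside these enzymes were read from lists, given as rows called in the authors' deposited tables over rows with an adjusted p. Over all such rows 30.5% were called positive and 16.1% negative in sardine, and 14.1% and 10.8% in mackerel. Of the sardine rows, 82.8% of those on predicted records and 19.7% of those on curated records had 0 negative-side reads, so 0 negative-side reads were the usual state of a predicted record. All 7 sardine rows of the steroid genes above are curated records. The exact binomial test called 10 of the 24 mackerel rows named from the lists and 4 of the 17 sardine rows that could be tested. In sardine even a UGT1A1 row with 23 reads against 0 was not called (adjusted p 0.12). No split toward the positive side is stronger at that depth. Further rows of the genes named from the lists numbered 21 in mackerel, with 0 called in the authors' deposited table. That 0 was set by the naming rule, since every called row of a gene called in both species was counted as named. In sardine the further rows numbered 10, with 2 called positive and 1 negative. The sterol synthesis partners of HSD17B7 were called positive in 10 of 11 sardine rows and 7 of 9 mackerel rows, and negative in 0 of either. In mackerel LSS, which closes the sterol rings, had 79 reads against 3 and 3.52 ± 0.30 in the authors' deposited table. The isomerase EBP had 60 against 7 and 2.42 ± 0.25 there, and squalene synthase FDFT1 14 against 1 and 1.92 ± 0.35. In sardine DHCR7, the last reductase of the pathway, stood at 3.0 ± 0.46 in the authors' deposited table, LSS at 3.09 ± 0.47, and the curated MSMO1 row, chosen after its value was seen, at 2.55 ± 0.52. A second MSMO1 row, on a predicted record with 0 negative-side reads, had a positive side 15.3-fold or more above the negative. Of the partners, DHCR7, LSS, EBP, CYP51A1 and SQLE were called positive in both species in the authors' deposited tables. The exact binomial test of the mackerel reads called LSS and EBP, but not FDFT1 (adjusted p 0.066), SQLE (0.478), DHCR7 (0.665) or CYP51A1 (0.875). DHCR7 had 5 reads against 0, too few for a positive call at any split. HSD17B7 had the same sign in mackerel as the called rows of its list, on 6 reads against 1. The interval of its ratio includes equal levels.

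The peroxisomal partners of HSD17B4 were called positive in 7 of 10 sardine rows and 4 of 11 mackerel rows and negative in 0. HSD17B4 itself, found only in mackerel, was not called. Of the 10 sardine rows 5 had 0 negative-side reads, a state in which 60.7% of all sardine rows were called positive. Of the 5 with reads on both sides 3 were called positive. The sterol carrier and thiolase SCP2 stood at 2.59 ± 0.67 in sardine and at 0.97 ± 0.24 in mackerel, where it had 170 reads against 68, in the authors' deposited tables. EHHADH, the other bifunctional enzyme of peroxisomes, had 34 reads against 13 in mackerel and 0.96 ± 0.21 in the authors' deposited table. It was also called positive in sardine on 12 reads against 0. The carnitine acyltransferase CRAT was called positive in both species, on 17 reads against 0 in sardine and 9 against 1 in mackerel. The exact binomial test called neither of these sardine rows (adjusted p 0.392 for EHHADH and 0.187 for CRAT). With all their reads on the positive side, neither could have been called positive at its depth. The other mackerel rows of CRAT had 1 read against 1 and 0 against 1 and were not called. Of the mackerel rows named, the exact binomial test called SCP2, but not EHHADH (adjusted p 0.293) or CRAT (0.389).

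The elongation partners of HSD17B12 were called positive in 6 of 8 and negative in 1 of 8 sardine rows, and in 1 and 2 of 6 mackerel rows. Of the 8 sardine rows 3 had 0 negative-side reads, and of the 4 with reads on both sides 3 were called positive and 1 negative. The elongase ELOVL1 was positive in both, at 2.12 ± 0.65 in sardine and 1.25 ± 0.22 in mackerel (63 reads against 20), in the authors' deposited tables. The next enzyme after HSD17B12 in the cycle, the dehydratase HACD2, stood at 2.17 ± 0.65 in sardine. In mackerel it is listed under its older symbol PTPLB, at -1.26 ± 0.25 with 122 reads against 248, in the authors' deposited table. The elongase ELOVL6 was called positive in sardine on 9 positive-side reads and negative in mackerel on 3 reads against 6. The exact binomial test called the mackerel ELOVL1 and PTPLB rows, but not ELOVL6 (adjusted p 0.947). The mitochondrial partners of HSD17B8 were called positive in 2 and negative in 1 of 7 sardine rows and in 0 of 5 mackerel rows. Of the 7 sardine rows 4 had 0 negative-side reads, and of the 3 with reads on both sides 0 were called positive and 1 negative. In sardine the lipoate synthase LIAS stood at -1.27 ± 0.39 in the authors' deposited table and was called negative. The acyl carrier NDUFAB1 was on the positive side at least 4.53-fold higher on a predicted record with 0 negative-side reads, while its curated row stood at -0.22 ± 0.39 in the authors' deposited table and was not called.

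The bile acid partners of HSD3B7 were called positive in 5 of 13 sardine rows and 2 of 8 mackerel rows and negative in 0. Of the 13 sardine rows 10 had 0 negative-side reads, and of all sardine rows at 0 there 60.7% were called positive and 0 negative. The sterol hydroxylase CYP8B1 was on the mackerel positive side at least 4.85-fold higher, with 18 reads against 0, and at least 5.51-fold higher in 1 of its sardine rows. The other CYP8B1 row named stood at 3.45 ± 0.90 in the authors' deposited table with an estimated 1 negative-side read. The bile salt pump ABCB11 had 18 reads against 4 in mackerel and 1.37 ± 0.28 in the authors' deposited table, and was called positive in sardine on 9 reads against 0, on a predicted record. The exact binomial test called this mackerel CYP8B1 row, but not ABCB11 (adjusted p 0.269). The other mackerel CYP8B1 row had 2 reads against 2 and was not called in the authors' deposited table. Nor were the other sardine ABCB11 rows, with 6, 8 and 7 reads against 0.

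Among other enzymes of steroid metabolism 4 of 12 sardine rows were called positive and 1 negative, and 2 of 15 mackerel rows positive and 0 negative, positive shares near those over all rows. HSD17B6 had 354 reads against 142 in mackerel and 0.96 ± 0.25 in the authors' deposited table. CYB5A, the cytochrome b5 that assists steroid hydroxylases, was positive in both species, at 2.94 ± 0.67 in the better covered sardine row and 0.78 ± 0.22 in 1 of its 3 mackerel rows in the authors' deposited tables. The other mackerel rows of CYB5A, with 18 reads against 9 and 0 against 1, were not called, and the exact binomial test did not call the named one (adjusted p 0.316). The retinol dehydrogenase RDH5 had 3 sardine rows, which went different ways. In the authors' deposited table the best covered stood at 3.92 ± 0.72 and was called positive. Another, with 0 positive-side and 2 negative-side reads, stood at -4.88 ± 1.98 there and was the negative call of the list, and the last, at -1.37 ± 1.12 there, was not called.

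For conjugation, which attaches sulfate or glucuronate to steroids, 19 of 25 sardine rows were called positive and 0 negative. Of these 25 rows 22 had 0 negative-side reads, and of all sardine rows at 0 there 60.7% were called. The glucuronosyltransferase UGT2A1 gave most of the called rows. These rows are similar copies of a gene family, between which the authors' counting may have split reads. The UGT2A1 bounds in the 3 most changed rows put the positive side at least 7.21-fold, 7.00-fold and 6.20-fold higher, the first 2 of them on predicted records. In mackerel 4 of 16 conjugation rows were called positive and 2 negative, among them UGT2B15 with 15 reads against 1 (2.00 ± 0.35 in the authors' deposited table), the sulfotransferase SULT1A1 with 9 against 2 (1.07 ± 0.34 there) and UGT1A1 with 2 against 10 (-1.71 ± 0.33 there). Of these the exact binomial test called UGT2B15 alone. The other mackerel rows of UGT1A1, with 7 reads against 10, 8 against 6 and 1 against 2, were not called in the authors' deposited table. UGT1A1 and SULT1A1 were called positive in sardine, on predicted records with 0 negative-side reads.

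The other plasma carriers had few rows, with 3 of 3 called positive in sardine and 1 of 4 positive and 2 negative in mackerel. All 3 sardine rows had 0 negative-side reads. On the sardine positive side the thyroid hormone carrier TTR was at least 97.9-fold higher on a predicted record, and the retinol carrier RBP4 at least 6.90-fold higher on a curated one. In mackerel RBP4 had 89 reads against 37 and 0.91 ± 0.23 in the authors' deposited table, on the other side than SHBG. Apolipoprotein APOA1 was on the same side as SHBG, with 735 reads against 1118 and -0.87 ± 0.25 in the authors' deposited table, as was APOD with 5 against 10 (-0.99 ± 0.29 there). The exact binomial test called RBP4 and APOA1 in mackerel, but not APOD (adjusted p 0.858). Of the membrane progestin receptors and relatives of cytochrome b5, 3 of 5 sardine rows and 1 of 6 mackerel rows were called positive and 0 negative. SERBP1, an RNA-binding protein reported as a partner of PGRMC1, stood at 3.36 ± 0.42 in its better covered sardine row in the authors' deposited table, and the reductase CYB5R3 at 3.54 ± 0.64 in sardine and 0.77 ± 0.28 in mackerel in the authors' deposited tables. The mackerel CYB5R3 row was not called by the exact binomial test (adjusted p 0.947), and its other row, with 13 reads against 10, was not called in the authors' deposited table.

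**Figure D5:**
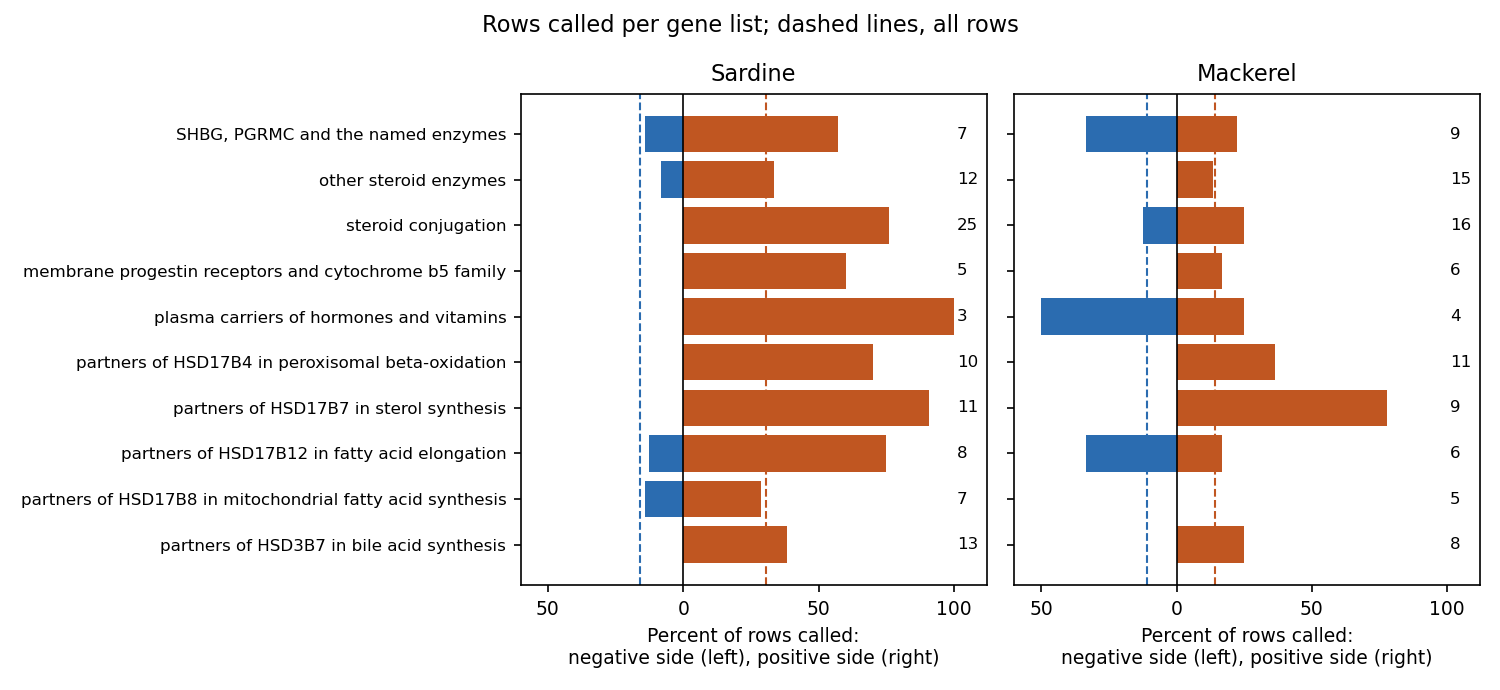
Percent of the rows of each list called on the positive side (orange, to the right) and on the negative side (blue, to the left) in the authors' deposited tables, sardine on the left and mackerel on the right, with the number of rows that had an adjusted p at the right edge of each panel. Dashed lines mark the share over all rows (30.5% and 16.1% in sardine, 14.1% and 10.8% in mackerel). The lists, of which the 10 genes are 1, were chosen with earlier results of these data known and were not tested as sets. In sardine 24 of 27 hepatocyte marker rows were called positive, as were 60.7% of all rows with 0 negative-side reads. On the positive side 8 of the 10 lists pass the dashed line in both species, all but the other steroid enzymes and the partners of HSD17B8. In mackerel the elongation, progestin receptor and plasma carrier lists pass it on 1 called row each. Negative calls there were 2 of 6 in elongation, 2 of 4 in plasma carriers and 3 of 9 in the 10 genes.

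Set side by side, the 6 genes found in both species fell on various sides. SHBG, PGRMC1 and HSD17B8 were called positive in sardine and negative in mackerel in the authors' deposited tables. The exact binomial test called HSD17B8 in neither species (adjusted p 0.392 in sardine and 0.858 in mackerel). The sardine reads of HSD17B8 all lay on the positive side, so a positive call was out of reach at that depth. The exact test did not call PGRMC1 in mackerel (adjusted p 0.187). Relative to the summed hepatocyte markers, the sardine ratio of PGRMC1 was 1.15. PGRMC2 was called negative in sardine and not called in mackerel. HSD17B2 was called positive in sardine and had no adjusted p in mackerel, and HSD3B7 was not called in either. No test was made between the species, as their tables come from separate fits and neither says which side is the exposed one.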

How the data were processed

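Livers were sequenced as TruSeq libraries, per the labels. CASAVA 1.8, DESeq2 and the zebrafish build GRCz10 are named in the submitters' processing notes. How reads were aligned, counted and filtered, and with which DESeq2 version, is not given in the sources used here. Per the file headers, the authors' values are a mean of normalized counts (a signal, averaged over the libraries), a log2 fold change with standard error, the Wald statistic (a score), and the raw and adjusted p-value. Sardine rows carry zebrafish RefSeq records and mackerel rows fugu gene models, so reads were counted against other species. No coordinates or sequences are printed, as no genome was used here.

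Symbols were matched exactly. Whole reads were recovered with numpy 2.4.6 from the deposited mean normalized counts: a mackerel mean was 0.455 per positive-side read plus 0.563 per negative-side read plus a constant of 1.66 (largest residual 3.36e-06). In sardine each read added 0.443 on the negative side and 0.082 to 0.142 in the 5 positive-side libraries. Recovery was tested on simulated data. Exact binomial tests (scipy 1.17.1) used the positive-side share expected from this grid (55.3% in mackerel, 80.3% in sardine). A floor is 3 reads over a side, and intervals are exact at 95%. Bounds set at the floor are not 95% limits. No test between fish was possible. The labels do not say which fish gave which library.

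Every row of the 10 genes is reported. From each other list up to 3 rows per species were named, those with the largest fold change among called rows with a mean of at least 5, and rows called in both species could be added; UGT2A1 rows were summarised. The members and lists were chosen with earlier results of these data known. Alternatives are given in the closing section.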

Additional observations from a re-analysis of the deposited data

How the results depend on the processing

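No paired analysis was possible because neither table has columns per fish and no label pairs the fish, and leaving out single fish was not run because the tables hold no values per fish. All 17 rows kept their direction with centring on the median; thresholds and adjustments cannot change a direction. Counts of called rows moved. Sardine positive calls (4) became 2 at an adjusted p under 0.01 and 2 at a mean of at least 5, and at an adjusted p under 0.1 they became 5 and the negative calls (1) became 2. Mackerel negative calls (3) became 5 at an adjusted p under 0.1. Mackerel positive calls (2) became 1 at an adjusted p under 0.01, with adjustment over all deposited rows, at a mean of at least 5 and with centring; the call lost was HSD17B7. The exact test of mackerel reads left 0 positive and 1 negative call, with 2 rows at an unadjusted p under 0.05. Among alternatives added after seeing the data, that test scaled by total reads gave the same 0 and 1, and at least 10 reads left 1 positive mackerel call. Sardine rows with reads on both sides gave 1 positive call, and the exact test on the 4 solved sardine rows gave 0 positive and 0 negative calls, also at an unadjusted p under 0.05. In HSD17B2, HSD17B8 and CYP19A1 all reads lay on 1 side already. At their depth no call on that side was possible, so the missing calls of these rows say nothing about their levels. Relative to the summed hepatocyte markers, also added, HSD3B7 in sardine and PGRMC2 in mackerel changed side, and neither was called. PGRMC1 in sardine kept its side at a ratio of 1.15, but its log2 fold change of 2.45 lay below that of the median marker row.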

Other observations

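The deposited tables hold fewer rows than the adjustment covered. The smallest adjusted p divided by its raw p gives 12737 tests in sardine and 7048 in mackerel by the Benjamini-Hochberg method, against 6600 and 6319 deposited rows with an adjusted p.

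Markers of other cell types that a liver sample can hold were also read. In sardine the endothelial and stellate markers were called negative in 11 of 12 rows and positive in 0, at summed levels of 12.2 against 924, positive side first. Leukocyte markers were negative in 2 of 5 and positive in 0, erythrocyte markers negative in 5 and positive in 3 of 14, and bile duct markers 2 and 2 of 5. In mackerel these lists had 3 negative and 1 positive of 7, 1 and 0 of 5, 2 and 0 of 6, and 2 and 1 of 11. Gonad markers were nearly absent, with 1 sardine row, called negative at summed levels of 0.873 and 4.43, and 3 mackerel rows with 1.82 and 2.25, of which none was called.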
